A study of Mus musculus with 19 samples.

Results

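Gli2 is one of the transcription factors at the end of the Hedgehog pathway. When Hedgehog ligand binds the receptor Ptch1, the transducer Smo is released and Gli proteins move from the primary cilium to the nucleus, where they switch on targets such as Gli1, Ptch1 and Hhip. In the cerebellum this pathway keeps granule neuron precursors dividing, and medulloblastomas of the Hedgehog type arise from these cells. NVP-LDE225 is an antagonist of Smo, so Gli2 acts below the step that the compound blocks. Amplification of Gli2 has been described in medulloblastomas that became resistant to Smo antagonists. DNA was not measured on these arrays.

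The tumours compared here were 16 resistant medulloblastomas from mice given NVP-LDE225, of 19 tumours in all, sorted by how much Gli2 they expressed. They were selected on the signal of the brighter of the Gli2 probe sets: 8 tumours above 1000 formed the Gli2-high group and 8 at or below 1000 the Gli2-low group. All tumours grew under the skin of nu/nu (nude) mice from dissociated cells of tumours of Ptch+/-p53-/- mice, so all groups, controls included, share the loss of p53 and of 1 working copy of Ptch. The labels do not say how many donor tumours the grafts came from, or whether each array is a mouse of its own, so a p-value here reflects how far the 16 arrays spread, which may be technical in part. Dosing began about 10 days after implantation. The Gli2-high group held 6 tumours at 40 mg/kg (numbers 1, 2, 3, 4, 5 and 7) and 2 at 160 mg/kg (2 and 5). The Gli2-low group held 2 at 40 mg/kg (6 and 8) and 6 at 160 mg/kg (1, 3, 4, 6, 7 and 8). The labels call all 16 resistant, and the 3 vehicle tumours, which the labels call sensitive, are given as levels and entered no test. Of 4 granule lineage markers, the zinc finger gene Zic1 ran from 3632 to 6115 and the neuronal factor Neurod1 from 2124 to 5490 over the 16 tumours. The precursor factors Atoh1 and Barhl1 ran from 22.5 to 1954 and from 32.7 to 910. Both lowest values were those of the Gli2-high 160 mg/kg tumour 2, against lowest Gli2-low values of 708 and 418. Of the 8 Gli2-high tumours, 3 lay below all Gli2-low tumours for Atoh1 and 5 for Barhl1. Median signal per array ran from 32.7 to 49.7 over the 19 arrays. The small number of arrays limits how precise each comparison is.

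Gli2 signal, which chose the groups, is given without a test. At 40 mg/kg the 6 Gli2-high tumours gave 1984, 1910, 1919, 2502, 1950 and 1934, and at 160 mg/kg tumour 2 gave 4326 and tumour 5 gave 1348. The Gli2-low tumours gave 578 and 547 at 40 mg/kg and 388, 416, 457, 638, 542 and 758 at 160 mg/kg, and the vehicle tumours gave 573, 631 and 645. The member just above the threshold of 1000 was thus 160 mg/kg tumour 5 and the one just below it 160 mg/kg tumour 8, with no tumour between 758 and 1348. The dimmer Gli2 probe set also separated the groups, with 469 to 2415 in the Gli2-high and 139 to 266 in the Gli2-low tumours.

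All other probe sets were compared between the groups with dose as a covariate, on log2 of signal plus 2.5, where a difference of 1 is 2-fold. By limma with Benjamini-Hochberg adjustment at 0.05, 0 of 30496 probe sets were called, that is 0%, and the smallest adjusted p was 0.142. At an unadjusted p under 0.05 there were 2525 probe sets, or 8.28%. Counted as 13195 genes, each by its brightest kept probe set, 525 (3.98%) were higher and 674 (5.11%) lower in Gli2-high tumours at that unadjusted threshold. No gene was higher in all 8 Gli2-high tumours than in all 8 Gli2-low tumours (0%), and 1 gene was lower in all (0.00758%). This was the ubiquitin ligase gene Siah1a, named after its values were seen, with 285 to 485 in Gli2-high and 491 to 558 in Gli2-low tumours (log2 difference -0.32, SE 0.11, adjusted p = 0.519).

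One tumour stood apart. The 160 mg/kg tumour 2 had the highest Gli2 signal of the series, but its array was the least like the other treated arrays, with a mean correlation of 0.918 against 0.930 to 0.949 for the rest. Without it the count of calls was no longer 0: limma called 33 probe sets higher (0.108%) and 1 lower (0.00328%) in the other 7 Gli2-high tumours. Of the 33, 30 carried the name of a chromosome 1 gene, 2 had no symbol and 1 was a probe set of Slit1, an axon guidance ligand on chromosome 19. The 30 belonged to 14 genes, and all 14 lay within 50 measured genes of Gli2 in the GRCm38.p6 gene order. The lower one was a probe set of Nvl, a ribosome assembly ATPase on chromosome 1. Leaving out any other single tumour gave 0 calls, except that without 40 mg/kg tumour 6 there was 1, Dpysl5.

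Of the 40 measured genes nearest to Gli2, 15 were higher in at least 7 of the 8 Gli2-high tumours than in any Gli2-low tumour, which held for 0.273% of all genes. Nifk, a nucleolar protein gene 3 measured genes before Gli2, ran from 532 (median 1657) to 2715 in Gli2-high tumours, from 416 (median 545) to 708 in Gli2-low tumours and from 480 to 527 in vehicle tumours. The lowest Gli2-high value, 532, was that of 160 mg/kg tumour 2, and the other 7 were at or above 1411, higher than all Gli2-low tumours. The log2 difference was 1.56 (SE 0.29, limma adjusted p = 0.142), and 2.12 without that tumour (adjusted p = 4.68e-06). Tsn, which encodes the RNA- and DNA-binding protein translin, ran from 1342 (median 3893) to 4720 in Gli2-high and from 1049 (median 1290) to 1868 in Gli2-low tumours. Again only 160 mg/kg tumour 2, at 1342, lay among the Gli2-low tumours, and the log2 difference of 1.16 (SE 0.23, limma adjusted p = 0.158) became 1.56 without it (adjusted p = 0.000231).

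On the other side of Gli2, 5 genes picked after their values were seen had the same layout. Ptpn4, a tyrosine phosphatase, ran from 502 (median 1942) to 3484 in Gli2-high and from 388 (median 604) to 887 in Gli2-low tumours. Epb41l5, a membrane scaffold protein of the band 4.1 family, ran from 51.0 (median 397) to 874 against 74.9 (median 96.3) to 127. The membrane protein gene Tmem185b ran from 267 (median 1069) to 1718 against 172 (median 257) to 337. In each of these the lowest Gli2-high value was that of 160 mg/kg tumour 2 and the other 7 exceeded every Gli2-low tumour. Dbi, the acyl-CoA binding protein, ran from 1576 (median 6822) to 11174 against 2638 (median 3134) to 3246, and the GTPase gene Ralb from 115 (median 447) to 845 against 95.8 (median 137) to 217. The log2 differences were 1.46 for Ptpn4, 1.36 for Epb41l5, 1.62 for Tmem185b, 0.71 for Dbi and 1.2 for Ralb, and none was called. Without 160 mg/kg tumour 2 they were 2.05, 2.11, 2.15, 1.27 and 1.68, with limma adjusted p of 0.000141, 0.000451, 0.000477, 0.00134 and 0.00226.

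**Figure D1:**
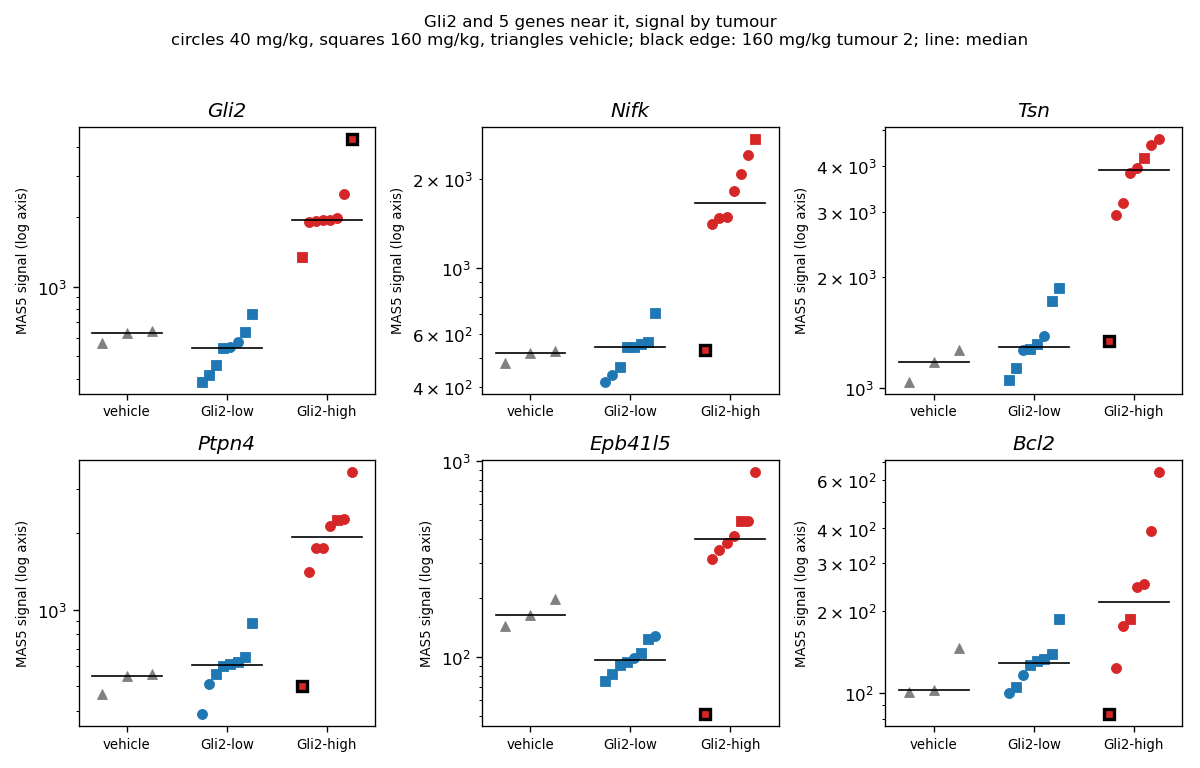
Signal of Gli2 and of 5 genes near it on chromosome 1 (log axis) in vehicle, Gli2-low and Gli2-high tumours, 1 point per tumour, with the group median as a line and 160 mg/kg tumour 2 outlined in black. That tumour is highest for Gli2 at 4326 but lowest of its group for the 5 neighbours, for example 532 for Nifk.

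Over the 40 measured genes nearest to Gli2, 20 on each side, 36 had a positive log2 difference and the median was 0.68, beside a median of -0.02 over all 13195 genes. At an unadjusted p under 0.05, 21 were higher and 1 lower. Over all genes, at least 7 of the 8 Gli2-high tumours lay above all Gli2-low tumours for 36 (0.273%), and the reverse, at least 7 below, for 10 (0.0758%). The members of this stretch were not alike. The transcription factor gene Tfcp2l1 (0.34, SE 0.61) and the inhibin subunit gene Inhbb (0.16, SE 0.26), the immediate neighbours, and the ferrireductase gene Steap3 (-0.03, SE 0.41) had errors larger than their differences, and exceeded all Gli2-low tumours in 4, 4 and 1 of the Gli2-high tumours. Bcl2, which blocks apoptosis, stood 11 measured genes before Gli2 and reached 644 and 391 in 40 mg/kg tumours 5 and 1, against 99.7 to 186 in Gli2-low tumours. Its Gli2-high values began at 83.4, and its difference of 0.58 (SE 0.35, adjusted p = 0.693) was not called.

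By tumour, the median of these 40 genes above the Gli2-low mean was 0.68, 0.82, 0.65, 1.24, 1.84 and 0.94 in the Gli2-high tumours 1, 2, 3, 4, 5 and 7 at 40 mg/kg and 0.77 in tumour 5 at 160 mg/kg. In 160 mg/kg tumour 2 it was -0.23, and in the vehicle tumours it ran from -0.09 to -0.02. In that tumour 1 of the 40 genes exceeded all Gli2-low tumours, whereas 24 to 32 did so in the other 7. Among Gli2-low tumours the median ran from -0.15 to 0.31, and the highest was that of 160 mg/kg tumour 8, which also had the highest Gli2 of its group. For Ddx18, an RNA helicase gene in the stretch, that tumour gave 940 where the other Gli2-low tumours gave at most 705.

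The stretch of raised signal differed in length between tumours. In blocks of 20 measured genes, the block from Clasp1 to Slc35f5, which holds Gli2's place, had medians of 0.65, 1.39, 1.2, 1.57, 1.87 and 1.43 in the 40 mg/kg Gli2-high tumours and 1.39 in 160 mg/kg tumour 5, against -0.26 in 160 mg/kg tumour 2. The block from Ackr3 to Rnpepl1, 3 blocks earlier, was raised most in 40 mg/kg tumours 4 and 5 (1.52 and 1.28) and stood at 0.11 in tumour 2 at that dose. The block from Gpr39 to Dyrk3, after it, stood at -0.07 in 40 mg/kg tumour 1 and at 1.42 in 160 mg/kg tumour 5. In the latter tumour the raised stretch went on to the block ending at Rabif, at 1.02. Gli2-low tumours stayed between -0.19 and 0.32 in the Clasp1 block.

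Farther along the chromosome the sign was the opposite. Over the last 99 measured genes of chromosome 1, from Opn3 to Cr1l, 89 had a negative difference between the groups, the median was -0.37, and 35 were lower and 0 higher at an unadjusted p under 0.05. The tumour medians were -0.42, -0.18, -0.20, -0.67, -0.69 and -0.22 in the 40 mg/kg Gli2-high tumours and -0.68 in 160 mg/kg tumour 5. The 160 mg/kg tumour 2 stood at 0.12 with Gli2 high, and 160 mg/kg tumour 6 at -0.58 with Gli2 low. The other 7 Gli2-low tumours ran from -0.08 to 0.19 and the vehicle tumours from 0.10 to 0.24. Itpkb, an inositol phosphate kinase, and Capn2, a calpain protease, lie in this stretch. Capn2 ran from 143 (median 236) to 352 in Gli2-high and from 268 (median 343) to 409 in Gli2-low tumours, so the groups overlapped (log2 difference -0.80, SE 0.16, limma adjusted p = 0.158). Within doses they did not, with 209 to 352 against 366 to 383 at 40 mg/kg and 143 to 151 against 268 to 409 at 160 mg/kg. Of all 13195 genes, 35 (0.265%) were lower within both doses in this way, and Capn2 was picked for its small p-value.

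**Figure D2:**
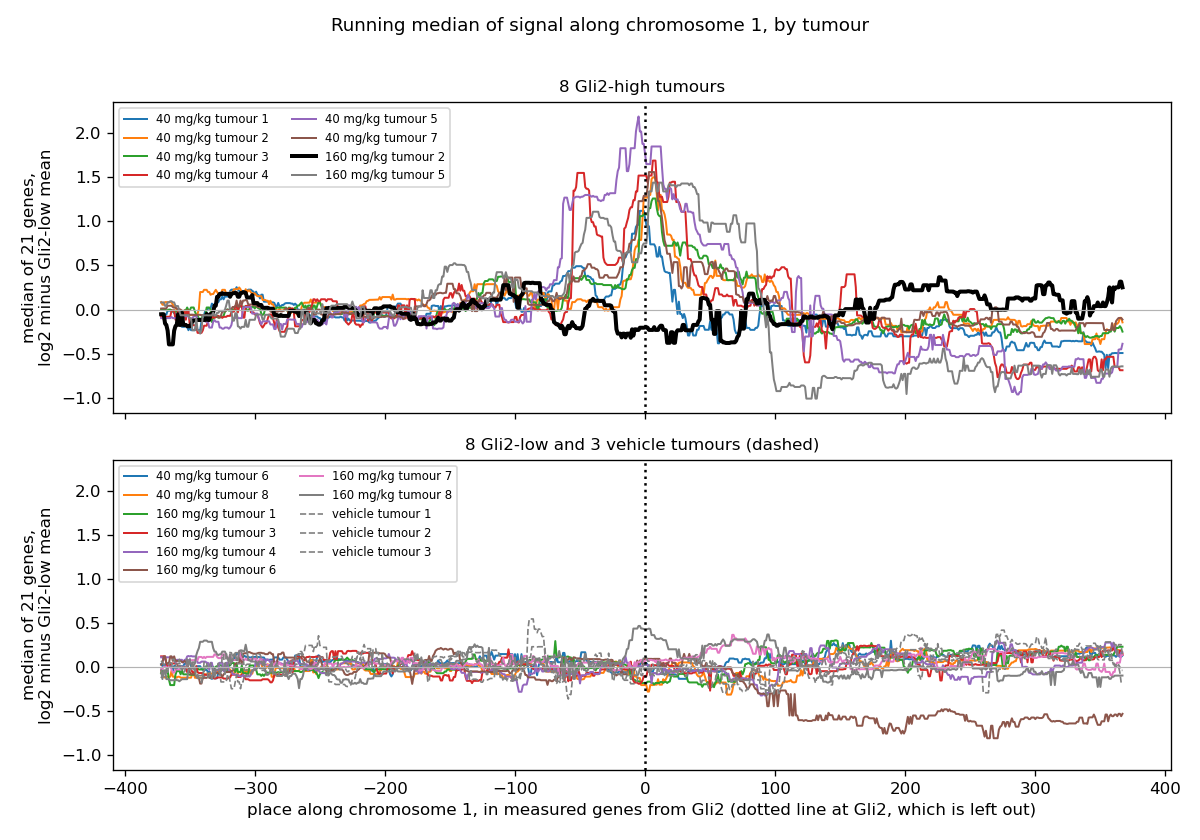
Running median over 21 measured genes along chromosome 1 of log2 signal minus the Gli2-low mean, by place from Gli2 (dotted line), for 8 Gli2-high tumours (top) and 8 Gli2-low and 3 vehicle tumours (bottom). The curves of 7 Gli2-high tumours peak beside Gli2 and differ in width, 160 mg/kg tumour 2 (black) has no peak, and 160 mg/kg tumour 6 is low towards the chromosome's end.

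The 160 mg/kg tumour 2 differed over long parts of chromosomes 8, 15 and 19. Blocks of 20 genes were counted where the median lay more than 0.3 from the Gli2-low mean, so the ranges given are those of the blocks so chosen. On chromosome 8, 27 of 35 blocks, from Mtmr7 to Rbm34, had medians from -0.93 to -0.35 in this tumour, while over the same blocks the medians of the other 15 treated tumours ran from -0.09 to 0.06. On chromosome 15, 23 of 26 blocks had medians from 0.35 to 0.79 (other tumours -0.06 to 0.07). On chromosome 19, 16 of 23 blocks had medians from -0.92 to -0.31, where the other tumours ran from -0.34 to 0.13, and the other 7 blocks, among them those from Arhgap19 to Zdhhc6, were not past 0.3. Siah1a lies on chromosome 8. Of 659 blocks over all chromosomes, 103 outside chromosome 1 lay beyond 0.3 in either direction in this tumour, against 1 to 31 in the other 7 Gli2-high tumours, 1 to 23 in Gli2-low tumours and 9 to 63 in vehicle tumours. Chromosome medians beyond 0.3 occurred in Gli2-low tumours too: 160 mg/kg tumour 6 stood at -0.42 on chromosome 13 and tumour 4 at -0.35 on chromosome 19.

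**Figure D3:**
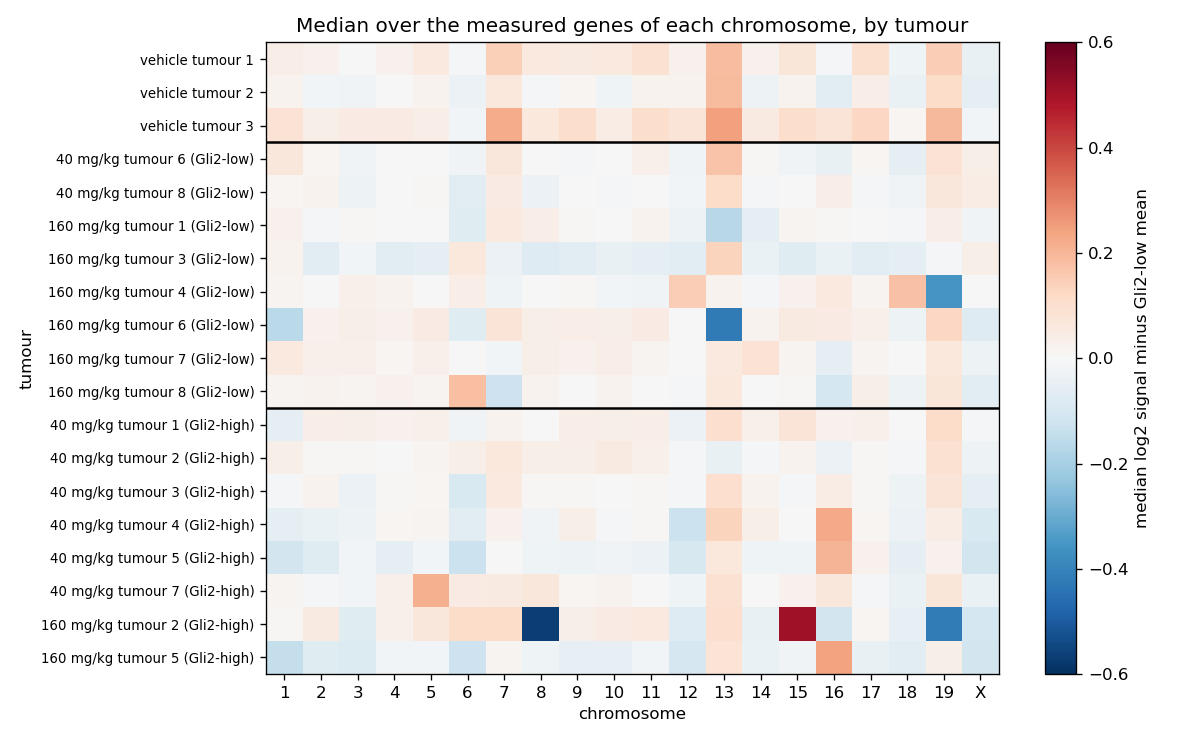
Median over the measured genes of each chromosome of log2 signal minus the Gli2-low mean (colour), for 3 vehicle, 8 Gli2-low and 8 Gli2-high tumours (rows). The 160 mg/kg tumour 2 stands out at -0.56 on chromosome 8, 0.51 on chromosome 15 and -0.42 on chromosome 19.

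No direct target of Gli proteins was called between the groups. Gli1, itself a target and an activator, ran from 106 (median 169) to 598 in Gli2-high tumours, from 113 (median 223) to 2638 in Gli2-low tumours and from 320 to 338 in vehicle tumours. The highest values, 2638 and 2286, were those of Gli2-low tumours (160 mg/kg tumour 1 and 40 mg/kg tumour 8), and the groups overlapped (log2 difference -1.23, SE 0.71, limma adjusted p = 0.678). Without 40 mg/kg tumour 8 the difference was -0.39. Ptch1, the receptor and a feedback target, ran from 864 (median 1332) to 1756 against 484 (median 1395) to 2427. Hhip, which binds and sequesters the ligand, ran from 101 (median 178) to 470 against 32.9 (median 176) to 452. It lies on chromosome 8, in a block whose median was -0.64 in 160 mg/kg tumour 2. The log2 differences were -0.08 (SE 0.30) for Ptch1 and 0.25 (SE 0.55) for Hhip, both smaller than their errors. Neither sign was stable: Ptch1 stood at -0.68 at 40 mg/kg alone and 0.51 at 160 mg/kg alone, and Hhip at -0.74 and 1.24. Of 23 listed Hedgehog targets 19 were tested, 9 with a positive and 10 with a negative difference, the median was -0.08 and 0 were called. At an unadjusted p under 0.05, 1 was higher and 2 lower, beside 3.98% and 5.11% of all genes.

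The 3 listed targets past an unadjusted p of 0.05 were Ccnd2 and Atoh1, with negative differences, and Ccnd1, with a positive one. Ccnd2, which drives entry into the cell cycle in granule precursors, ran from 129 (median 737) to 1796 in Gli2-high and from 532 (median 1535) to 2294 in Gli2-low tumours (log2 difference -1.42, SE 0.54, limma adjusted p = 0.549). This came from 160 mg/kg, where both Gli2-high tumours, at 129 and 368, lay below the Gli2-low range of 822 to 2294. At 40 mg/kg the groups overlapped and the difference was -0.09 (SE 0.65). Ccnd1 had the other sign, with 1942 (median 2497) to 3478 against 1392 (median 2046) to 2977 (0.39, SE 0.16, limma adjusted p = 0.572). Atoh1, the transcription factor that keeps granule precursors immature, differed by -1.53 (SE 0.64), but by -0.30 without 160 mg/kg tumour 2, whose signal of 22.5 lay far below the next Gli2-high value of 353. The oncogene Mycn (-0.16, SE 0.21) and the Wnt modulator Sfrp1 (-0.74, SE 0.49) were not called, nor were the pathway's transducer Smo (-0.17, SE 0.18), its inhibitor Sufu (0.10, SE 0.14) or the co-receptors Boc (-0.22, SE 0.24), Cdon (0.18, SE 0.22) and Gas1 (-0.10, SE 0.25). Gli3, which acts mainly as the repressor, was too dim to be tested, with 6.7 to 20.8 against 12 to 26.3.

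**Figure D4:**
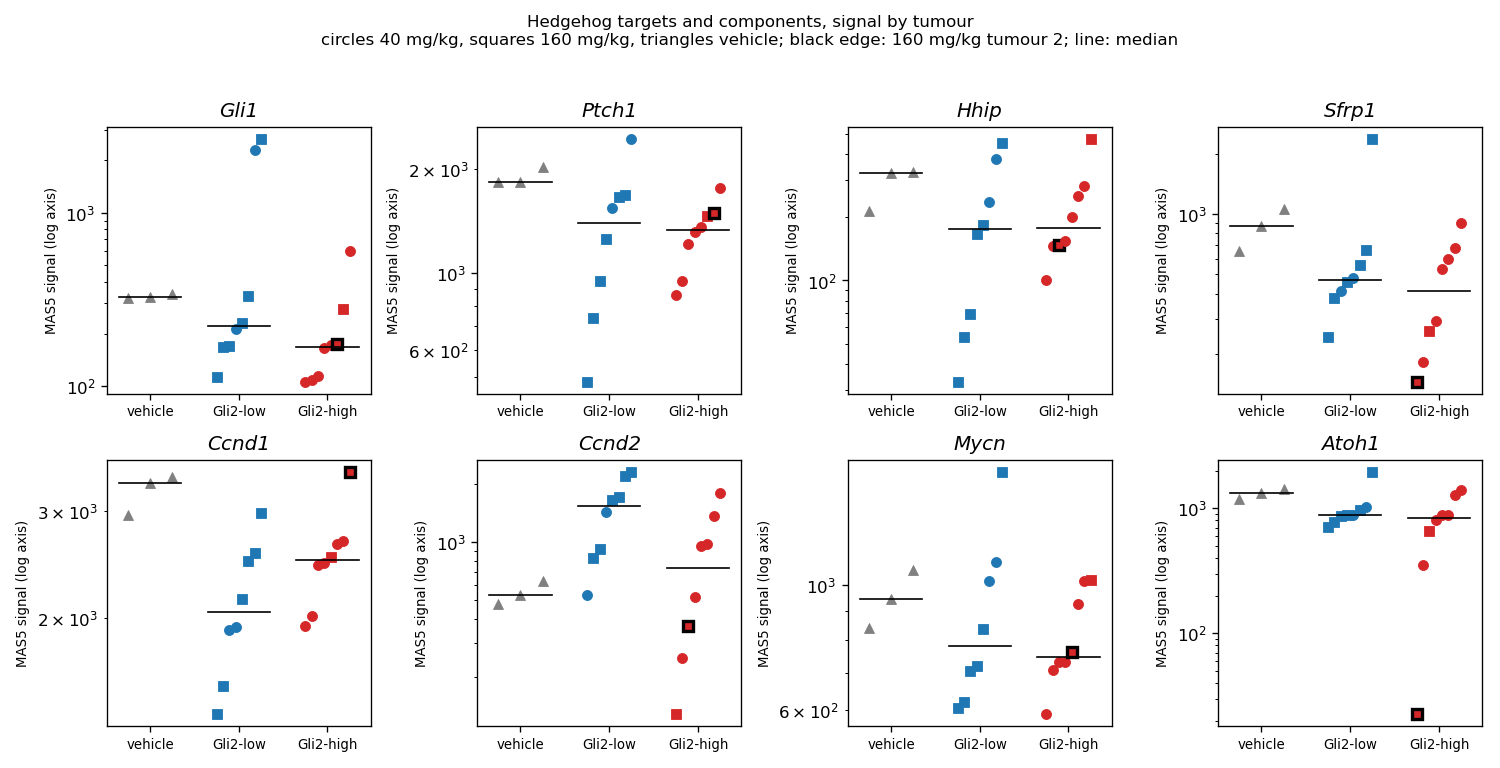
Signal of 8 Hedgehog targets and granule precursor genes (log axis) in vehicle, Gli2-low and Gli2-high tumours, 1 point per tumour, with the group median as a line and 160 mg/kg tumour 2 outlined in black. The groups overlap for every gene shown, and the highest Gli1 values, 2638 and 2286, belong to Gli2-low tumours.

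Of the 26 tested Hedgehog pathway components the median was -0.02, and 1 was higher and 1 lower at an unadjusted p under 0.05. Of all genes 3.98% were higher and 5.11% lower, so 1 of 26 each way is no more than that share. The higher one was Spop, an adaptor of the Cul3 ubiquitin ligase that targets Gli proteins for degradation. Spop ran from 1129 (median 1339) to 2088 in Gli2-high and from 900 (median 1084) to 1135 in Gli2-low tumours, so that 7 of 8 Gli2-high tumours lay above all Gli2-low tumours (0.48, SE 0.12, limma adjusted p = 0.381, and 0.31 without 160 mg/kg tumour 2). The lower one, Prkaca, the kinase subunit that marks Gli proteins for processing, lies on chromosome 8 and was lowest, at 426, in the Gli2-high group (-0.49, SE 0.16, and -0.25 without 160 mg/kg tumour 2). Cilium genes, which build the compartment where Gli proteins are activated, had 27 positive and 9 negative differences of 36, with a median of 0.09, and 3 higher (Ift80, Cep290 and Ift27) and 1 lower (Ofd1) at an unadjusted p under 0.05. Among all genes, 6169 of 13195 differences were positive.

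None of the genes with the smallest p-values on other chromosomes was called with all 16 tumours. Dpysl5, a cytoskeletal regulator of growing axons, ran from 30.2 (median 45.9) to 121 in Gli2-high, from 5.4 (median 21.4) to 42.7 in Gli2-low and from 1.3 to 16 in vehicle tumours (log2 difference 1.81, SE 0.31, limma adjusted p = 0.142). Dscam, a neuronal adhesion receptor, ran from 38.2 (median 53.9) to 88.1 against 12.8 (median 35.1) to 44.2 (1.17, SE 0.21). Its other kept probe sets differed by 1.02 (SE 0.27) and 0.04 (SE 0.345). Both genes were dim in Gli2-low tumours, so the size of their difference is not well measured. Dscam lies on chromosome 16, as do the oxidoreductase gene Cryzl1 (0.57, SE 0.10), the membrane protein gene Tmem50b (0.96, SE 0.18) and the ATP synthase subunit gene Atp5o (0.38, SE 0.08). The deubiquitinase gene Otulin on chromosome 15 differed by 0.57 (SE 0.11). Each of these 6 genes was higher in every Gli2-high than in every Gli2-low tumour within 40 mg/kg and within 160 mg/kg. Over all genes that held for 26 in this direction (0.197%) and for 35 in the other (0.265%). At an unadjusted p under 0.05, which 3.98% of all genes passed as higher and 5.11% as lower, 49 of 436 genes on chromosome 16 were higher and 10 lower. On chromosome 15, 54 of 515 were higher and 10 lower, and on chromosome 8, 12 of 704 were higher and 79 lower. The medians of chromosomes 15 and 8 were 0.51 and -0.56 in 160 mg/kg tumour 2. In the other treated tumours they ran from -0.07 to 0.08 and from -0.08 to 0.07, so these counts lean on 1 tumour. On chromosome X, 4 of 420 were higher and 54 lower. The median of chromosome 16 was 0.23 and 0.20 in 40 mg/kg tumours 4 and 5 and 0.24 in 160 mg/kg tumour 5, but ran from -0.11 to 0.07 in the other 5 Gli2-high tumours. The block from Synj1 to Mrps6 holds Cryzl1, Tmem50b and Atp5o. Its medians were 0.35, 0.21, 0.34, 0.44, 0.34 and 0.40 in the 40 mg/kg Gli2-high tumours. In 160 mg/kg tumours 2 and 5 they were 0.06 and 0.63. Gli2-low tumours ran from -0.45 to 0.29, with 40 mg/kg tumour 8 (-0.45) and 160 mg/kg tumour 3 (-0.32) lowest.

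The lower genes with the smallest p-values were B2m and H2-K1. B2m, the light chain of class I molecules, and H2-K1, a class I heavy chain, differed by -0.68 (SE 0.12) and -0.95 (SE 0.17), both at a limma adjusted p of 0.142. Pooled over doses their Gli2-high medians were the higher ones (1954 against 1753 for B2m), while 6 of the 8 Gli2-high tumours had the lower dose and 6 of the 8 Gli2-low tumours the higher one. Within 40 mg/kg, B2m ran from 1504 to 2331 in Gli2-high tumours against 3503 to 3940 in the Gli2-low tumours, and within 160 mg/kg from 1061 to 1380 against 1387 to 1975. H2-K1 separated in the same way, with 306 to 518 against 763 to 1046 and 168 to 183 against 230 to 476. Over all genes, 35 of 13195 (0.265%) were lower in this way within both doses. Both genes were picked for small p-values in the fit with dose, so this separation is not a separate result. Vehicle tumours had 2637 to 3631 for B2m. Another with a small p-value was Cflar, an inhibitor of caspase 8 (-0.57, SE 0.12). The other kept Cflar probe sets differed less, by -0.42 (SE 0.14), 0.01 (SE 0.25) and -0.19 (SE 0.24). The cytokine receptor gene Il7r (2 to 21 against 18 to 50.2) and Aldh1a1, which makes retinoic acid (2.2 to 58.9 against 17.5 to 83.1), were dim, so the size of their difference is not well measured.

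Interferon response genes had the same sign as B2m. All 26 tested had a negative difference, with a median of -0.62, and 13 were lower and 0 higher at an unadjusted p under 0.05, while 0 were called. Of all genes, 5.11% were lower at that threshold and 7026 of 13195 had a negative difference. The median of the interferon list was -1.08 at 40 mg/kg alone, where only 2 Gli2-low tumours stood against 6, and -0.14 at 160 mg/kg alone. Psmb8, an immunoproteasome subunit, ran at 40 mg/kg from 38.5 to 180 in Gli2-high and from 379 to 394 in Gli2-low tumours, and overlapped at 160 mg/kg (21.3 to 76.0 against 31.5 to 106). The summed signal of the list was 1847 to 3223 in Gli2-high, 1190 to 8307 in Gli2-low and 7721 to 11660 in vehicle tumours. In bulk tumours, fewer cells of a type and less RNA per cell cannot be told apart. Macrophage markers had a median of -0.56 with 0 of 18 past an unadjusted p of 0.05, 0.23 at 40 mg/kg alone and -1.35 at 160 mg/kg alone, and a summed signal of 1498 to 6006 against 1659 to 12180. Their part in the interferon values was not tested.

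No gene of the growth and differentiation lists was called. For comparison, 3.98% of all genes were higher and 5.11% lower at an unadjusted p under 0.05, and 7026 of 13195 had a negative difference. Of 21 G1 cell cycle genes, 17 were negative (median -0.24), 5 lower and 1 higher at an unadjusted p under 0.05. They included Rb1 (-0.29, SE 0.12) and, on chromosome 8, Rbl2 (-0.38, SE 0.13), which hold cells in G1. Without 160 mg/kg tumour 2 these were -0.19 and -0.19, and without 40 mg/kg tumour 6 the list's median was -0.13. Of 43 mitosis and DNA replication genes, 33 were positive (median 0.11) and 1, Cenpa, was higher, but the median was -0.13 at 40 mg/kg alone. Of 30 granule precursor genes 1 was higher and 4 lower, with a median of -0.02. Of 37 neuronal maturation genes none passed an unadjusted p of 0.05, and the median was 0.29 at 40 mg/kg alone and -0.25 at 160 mg/kg alone.

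No gene of the growth factor lists was called either. With 3.98% of all genes higher and 5.11% lower at an unadjusted p under 0.05, single members past it are not read as a result of a list. PI3K and IGF signalling genes had a median of 0.02 over 35, with 2 higher and 1 lower at an unadjusted p under 0.05. The lower one, Igfbp5, an IGF binding protein, stood at 26.9 and 72.5 in the Gli2-high tumours at 160 mg/kg against 130 to 1102, and overlapped at 40 mg/kg. Its difference of -1.72 was -0.98 without 160 mg/kg tumour 2. The Wnt list had a median of 0.23 over 11 genes and 1 higher, the transcription factor Lef1 (0.91, SE 0.27). The TGF-beta and BMP list had a median of -0.08 over 20 with 1 higher and 3 lower, among them Id2 (-0.70, SE 0.24), the FGF list -0.10 over 14 with 3 lower, the Notch list 0.08 over 22 with none, and the MAPK feedback list 0.02 over 14 with 1 higher. Hypoxia and glycolysis genes had -0.25 over 23 with 1 lower, immediate early genes -0.22 over 20 with 2 lower, and stress and apoptosis genes 0.09 over 22 with 1 lower.

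Markers of cells that a graft could hold beside tumour cells had wide ranges in both groups, and none was called. The shares of all genes at an unadjusted p under 0.05 were 3.98% higher and 5.11% lower, and 7026 of 13195 were negative. The 19 skeletal muscle markers were all negative (median -0.98), 1 was lower at an unadjusted p under 0.05, and their summed signal ran from 508 to 28210 in Gli2-high and from 696 to 18030 in Gli2-low tumours. The 15 oligodendrocyte markers were all positive (median 0.19), but -0.12 at 160 mg/kg alone. Astrocyte markers had a median of -0.27 over 13 with 2 lower, among them Gfap, the glial filament gene, with 20.3 (median 55.8) to 220 against 83.0 (median 142) to 276 (-1.61, SE 0.41, limma adjusted p = 0.381). Fibroblast markers had a median of -0.15 over 20 with 2 lower and endothelial markers -0.08 over 14. The lymphocyte and granulocyte list had -0.48 over 5, with 1 positive and 4 negative. Its granulocyte genes S100a8, S100a9 and Mpo were negative, and Cd8a was positive (0.58). Mpo and Cd8a were dim, as were Cd3e, Cd4 and Cd79a. Adipocyte markers had a median of -0.52 over 6, skin markers -0.06 over 4 and erythroid markers -2.17 over 2 with 1 lower. The part of these cells in the other results was not tested.

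**Figure D5:**
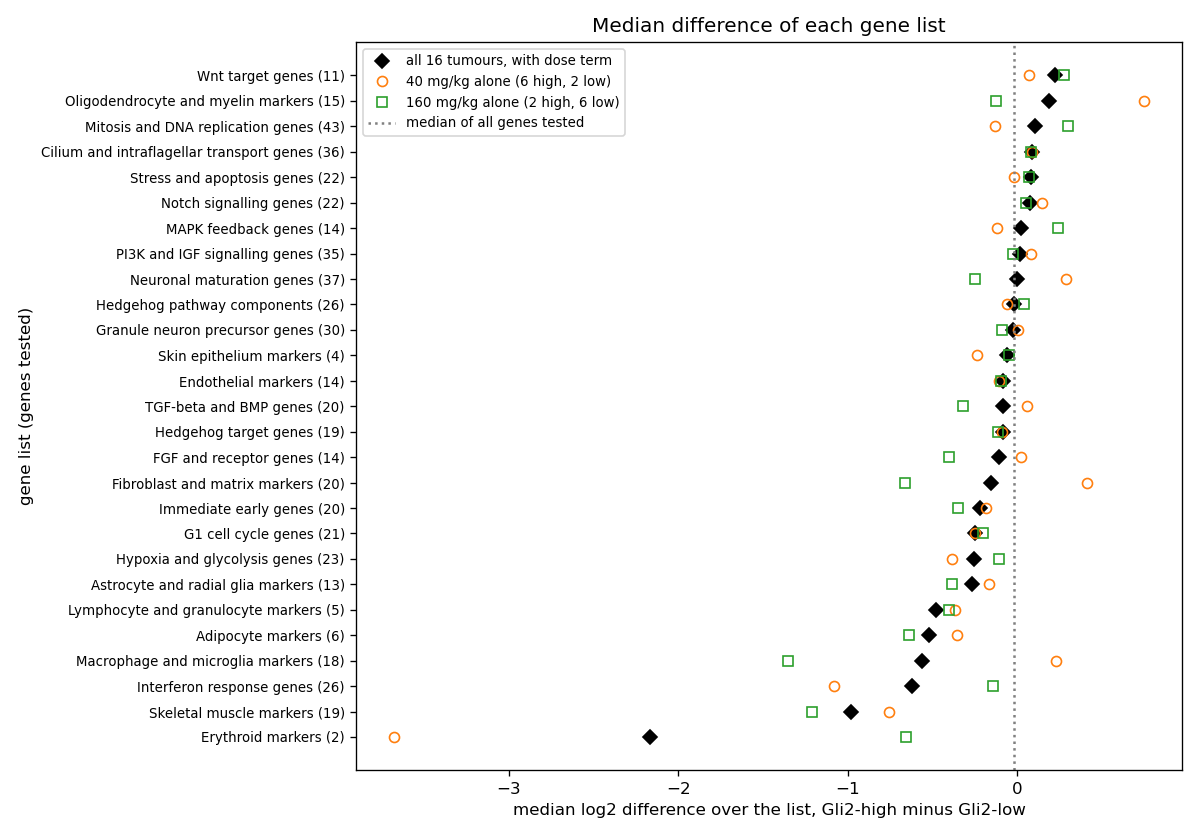
Median log2 difference, Gli2-high minus Gli2-low, over the tested genes of each of 27 lists, for all 16 tumours with dose in the fit and for each dose alone, with the median of all genes dotted. The interferon list is at -0.62 with both doses, -1.08 at 40 mg/kg and -0.14 at 160 mg/kg.

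Few probe sets were called as having a difference between the groups that depended on dose. With 2 tumours in the smaller group at each dose, that count does not show that the other differences were alike at both doses. In the fit with a group by dose term, limma called 8 of 30496 probe sets (0.0262%), 4 of them without a symbol. Zfp236, a zinc finger gene, ran at 40 mg/kg from 165 to 298 in Gli2-high and from 721 to 1327 in Gli2-low tumours, and at 160 mg/kg from 249 to 281 against 229 to 313. Blmh, a cysteine protease, ran at 160 mg/kg from 1690 to 2031 against 916 to 1314 and overlapped at 40 mg/kg. Each of these rests on the 2 tumours of the smaller group at a dose.

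The letters GACCACCCA, the consensus that Gli proteins bind, were searched on both strands from 250 bases before to 50 after each start in RefSeq promoters of GRCm38.p6. They stood in 78 of 27025 promoters (0.289%) and in 26 of the 10613 tested genes with a promoter (0.245%). Of the 24 genes with the smallest p-values, 22 had a promoter and 0 held the letters, and of the 40 genes nearest to Gli2, 35 had one and 1, Slc35f5, a solute carrier gene, held them. Of the listed Hedgehog targets 11 had a promoter, and of the Hedgehog panel 9, and 0 held the letters in either set. The 0 among the 22 therefore does not set those genes apart from listed targets. A match is a description of the letters and not of binding.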

How the data were processed

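Total RNA of 19 tumours was measured on mouse expression arrays. The authors deposited MAS5 signals, a linear intensity per probe set, per the labels and the submitters' processing notes; genome build and further normalization are not given in the sources used here. Of 45101 probe sets, 64 controls were left out. Platform annotation gave 34945 probe sets 1 symbol, 932 several and 9160 none; of the first, 34741 matched RefSeq GRCm38.p6 by Entrez ID, used for gene order only.

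Log2(signal + 2.5), the pseudocount being the 10th percentile, was fitted with limma 3.58.1 in R 4.3.3 (lmFit, eBayes with trend) on 16 treated arrays with Gli2 group and dose as terms and 13 residual degrees of freedom, two-sided, Benjamini-Hochberg at 0.05. Probe sets above the 40th percentile on at least 3 arrays were kept (30498), and both kept Gli2 probe sets were left out of tests. A gene is its brightest kept probe set with 1 symbol. Genes named were the 12 with the smallest p in each direction, a Hedgehog panel, neighbours of Gli2, and up to 4 genes with the smallest p of each list; correlations with Gli2 over the 16 tumours, also in the rule, are not printed because Gli2 splits the tumours into separate groups; block and stretch genes, interaction genes and those called without 160 mg/kg tumour 2 were chosen after their values were seen. Members and lists were chosen with earlier results of these data known. The fit was tested on simulated data. No arrays were identical (0 pairs; correlations 0.904 to 0.968). Same-numbered tumours of both doses did not deviate together (-0.14 to 0.10), so numbers were not used as pairs. Alternatives covered normalization, pseudocount, filter, weights, covariates, doses and leaving out each tumour.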

Additional observations from a re-analysis of the deposited data

Results flagged for a closer look

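Over 130 groups of 8 tumours checked with Dixon's criterion, 24 held a tumour far from the other 7. The usual rate of about 1 in 20 groups is no yardstick for this count. Many of the genes were picked after their values were seen, and several lie near each other on chromosome 1. Of the 24, 14 were 160 mg/kg tumour 2 among Gli2-high tumours. It was low for the genes beside Gli2, namely Nifk (531.5), Tsn (1342), Epb41l5 (51.0), Ptpn4 (501.6), Ralb (115) and Dbi (1576). It was also low for the granule precursor factors Atoh1 (22.5) and Barhl1 (32.7), the keratin Krt10 (161.2), the Hedgehog co-receptor Boc (187.6), the axon guidance ligand Slit1 (91.8), Maged2 (150.7) and Siah1a (285), and high for the inhibitor Sufu (397).

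Among Gli2-low tumours, 40 mg/kg tumour 8 was high for Il7r (50.2), Maged2 (789.5) and Acot9 (455.4). The 160 mg/kg tumour 6 was high for Sfrp1 (2351) and Atoh1 (1954) and low for Ptprz1 (32.3) and Rgs7 (1.1). The 160 mg/kg tumour 1 was high for Kif26a (31.7) and tumour 8 for Ddx18 (939.9). Among Gli2-high tumours, 160 mg/kg tumour 5 was low for Arsg (7.7).

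The difference between Gli2 groups was itself different at 160 and 40 mg/kg, by the interaction term, for Blmh (1.18), Zfp236 (2.18), Tbata (3.48) and Tnrc18 (-2.25), in log2 units at 160 mg/kg minus 40 mg/kg. The last 2 were called on a probe set other than the brightest of the gene. The brightest Tbata probe set differed by -1.48 at 40 mg/kg alone and by 0.625 at 160 mg/kg alone. That of Tnrc18 differed by -0.10 and -0.11, so it did not show the dose dependence of the called probe set. The other 4 probe sets called had no symbol.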

How the results depend on the processing

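The count of 0 probe sets called stayed 0 under other normalizations, pseudocounts, filters, all 19 arrays, a muscle covariate and Gli2 as a continuous value. It was 12 with array weights, 11 without the dose term, 27 at 40 mg/kg alone and 1 at 160 mg/kg alone. Leaving out each tumour in turn gave 0 to 34, and 14 of 16 gave 0. The replicate block gave 0 for this count. The 8 interaction calls became 4 with quantile normalization, 4 with median subtraction, 4 without a filter, 3 with a pseudocount of 16, 0 with array weights, 23 with a muscle covariate and 0 with the replicate block. Leaving out each tumour gave 0 to 776, the highest without 160 mg/kg tumour 5, which leaves 1 Gli2-high tumour at that dose. The cause of the other changes was not tested. Of 161 named genes 122, and of 27 lists 10, kept 1 sign under every alternative run.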
